A study of Mus musculus with 12 samples.

Results

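The regions described here were the start windows of long non-coding RNA genes, that is, the first 200 nt of their annotated transcripts. They were taken for every GENCODE M21 gene (mouse genome build GRCm38) of type lincRNA, antisense, bidirectional_promoter_lncRNA, processed_transcript or sense_intronic, without the 3 genes Gm42418, Gm26917 and AY036118. A small RNA read was assigned to a window when it was at least 18 nt long, matched a transcript exactly in the sense direction, matched no other annotated gene and had its 5' end inside the window. This gave 10117 windows (5851 lincRNA, 2959 antisense, 190 bidirectional_promoter_lncRNA, 790 processed_transcript and 327 sense_intronic), of 32068 start windows when the 21951 windows of protein-coding genes are counted too. No measured value entered the choice. In all 12 libraries together, 2567 of the 10117 windows held at least 1 read, 599 held at least 10 and 58 held at least 100.

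The study sequenced small RNAs of mouse embryonic stem cells to ask which of them are bound by Argonaute proteins and which are made near gene starts. TT-FHAgo2 and TT-Ago2 are clonal lines kept in doxycycline, which drives their Ago2. The Ago2 of TT-FHAgo2 carries a FLAG tag and that of TT-Ago2 does not, so the FLAG immunoprecipitation (IP) from TT-Ago2 is the background of the IP. At 2.5 μg/mL doxycycline there were 2 libraries each of the TT-FHAgo2 IP ("tagged IP"), TT-FHAgo2 input ("tagged input"), TT-Ago2 IP ("untagged IP") and TT-Ago2 input ("untagged input"). These 8 were cloned by a circularization method that does not depend on the 5' end. A further 4 libraries, 1 each, were cloned by a method that needs a 5' phosphate: TT-FHAgo2 with 2.5 μg/mL doxycycline, TT-FHAgo2 with no doxycycline (cells without Ago proteins, by the series' design), a wildtype line and a Dicer-null line, the last 2 without doxycycline. The labels do not say that the 2 libraries of a group came from separate cultures, so p-values measure only the spread between these libraries, which may be technical. The 2 cloning methods capture different RNA ends and were not compared by test.

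Long non-coding RNAs are transcribed by RNA polymerase II like messenger RNAs but encode no known protein. Many of those abundant in stem cells are host genes: small nucleolar RNAs (snoRNAs, which guide chemical modification of ribosomal RNA) or microRNAs are cut from their introns or exons. Argonaute proteins hold single-stranded RNAs of about microRNA length. Dicer, the enzyme absent from the Dicer-null line, cuts most of these from hairpins or double strands, and the bases 2 to 8 of such an RNA (the seed) direct it to its targets. Transcripts of snoRNA host genes usually begin with a run of pyrimidines. A C/D-box snoRNA carries near its 5' end the box C motif, whose core is TGATGA in DNA letters.

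The libraries held 14474875 to 78762632 reads. Of all reads in a file, 58.3% and 50.7% matched microRNA hairpins in the tagged IPs, 9.19% and 13.1% in the untagged IPs, 1.81% to 3.36% in the inputs, 10.3% with doxycycline, 1.30% without, 21.1% in wildtype and 1.42% in the Dicer-null library. All 10 embryonic stem cell markers examined had reads in every library, with a summed level of 14.0 to 118 CPM (reads per 1000000 reads of the file). Of 7 fibroblast markers 3 had reads (3.09 to 48.3 CPM summed), nearly all of Fn1 (59 to 853 reads a library). Col1a1 had at most 2 reads and Thy1 at most 3 in any library, and Col1a2, Col3a1, Postn and Dcn had 0. Of 5 endoderm markers 3 had reads (0 to 0.217 CPM, Afp and Foxa2 at 0), as did 4 of 4 neural markers (0.240 to 2.20 CPM). Most reads over these windows also matched another gene and were set aside: 98.3% and 98.8% in the tagged IPs and 75.3% to 91.4% in the other libraries. What follows therefore describes the minority of reads that only 1 gene can explain in the annotation.

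Reads of several kinds fell in the windows. The first kind ended in CACC or CACCA. The 4 RNAs shown come from windows that this kind filled, and capitals mark that 3' end. All lie in lincRNA genes at GRCm38 chr4:55418816-55418833 (minus strand), chr1:87080175-87080193 (plus), chr13:6269142-6269160 (plus) and chr13:33569172-33569190 (plus). None overlapped a tRNA gene of RefSeq. Mature tRNAs carry an added CCA end, and whether these reads came from tRNAs was not tested.
Gm12505: tttcccggccaatgCACC
Gm29371: tttcccggccaacgCACCA
Gm47549: atcccgggtttcggCACCA
Gm47916: cttcccggccaatgCACCA

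The second kind overlapped annotated small RNA genes and was common in the 5'-phosphate libraries. The most abundant RNA of those libraries, from 1110038B12Rik, is printed first for comparison (chr17:34952280-34952310, minus strand; 96722 reads, all in the 5'-phosphate libraries). It overlaps no annotated small RNA gene and contains TGATGA, given in capitals. The Gas5 RNA overlaps the annotated snoRNA Gm22489 (chr1:161035849-161035888, plus). Its 40 nt are the longest read length of these libraries, so the RNA may extend further. The Rian RNA overlaps the snoRNA AF357359 (chr12:109650702-109650738, plus), and the Rmrp RNA is the 5' part of the RNA component of RNase MRP, an enzyme that processes ribosomal RNA (chr4:43493030-43493059, minus).
1110038B12Rik: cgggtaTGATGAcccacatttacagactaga
Gas5: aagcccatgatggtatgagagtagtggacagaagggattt
Rian: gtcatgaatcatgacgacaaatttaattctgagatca
Rmrp: agctcgctctgaaggcctgtttcctaggct

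The third kind began at the annotated first base of a host transcript and are shown because they carry the 5' end of the long RNA itself. Capitals mark the pyrimidines that open the RNA. Snhg1 (chr19:8723487-8723506, plus) and Snhg3 (chr4:132353597-132353633, minus) are snoRNA hosts, and Gm10076 (chr14:105681828-105681855, plus) is a lincRNA gene whose RNA opens with G.
Snhg1: CTCatttttccttgttcggg
Snhg3: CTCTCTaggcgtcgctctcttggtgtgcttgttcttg
Gm10076: gctctcggtcttagcgccatcttccttg

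A small set of windows was highest in both tagged IPs. The most abundant RNAs of 4 of them there, 21 to 25 nt long, are shown with bases 2 to 8 in capitals. They lie at chr11:6528416-6528439 (minus), chr5:123135843-123135863 (plus), chr16:36862539-36862563 (plus) and chr13:99516768-99516789 (plus), in the order printed. No 2 of them share a seed. Apart from Snhg15, these members fell outside the rule for named genes and were chosen after their values were seen.
Snhg15: tCGGAGGGgctagaactgggtgat
Gm38102: tCCCGGTCacttccatcttcc
AC154232.1: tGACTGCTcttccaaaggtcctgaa
Gm26559: tGGTTGCCtccactcctccagc

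The windows held few reads in the tagged IPs. The counts were 2357 and 3234 reads in the tagged IPs, 11563 and 11766 in the untagged IPs, 15032 to 23684 in the inputs and 65701 to 201508 in the 5'-phosphate libraries. As a share of the file this was 0.0125% ± 0.0025 (SD, n = 2) for the tagged IPs and 0.0649% ± 0.0005 for the untagged ones. The tagged inputs stood at 0.127% ± 0.038 and the untagged inputs at 0.123% ± 0.027. Both tagged IPs lay below both untagged IPs (exact two-sided permutation test, p = 0.3333, the smallest that 2 against 2 libraries can give; 0.4166 adjusted over the 5 window measures tested). Protein-coding windows were also lower, with 0.112% ± 0.016 of the file for the tagged IPs and 0.403% ± 0.119 for the untagged ones. A share of the file moves with the hairpin share, which was 58.3% and 50.7% in the tagged IPs.

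Reads with a CACC or CACCA end made up 36.1% and 30.4% of window reads in the tagged IPs, 29.1% and 38.9% in the untagged IPs and 81.0% to 84.0% in the inputs. In the 5'-phosphate libraries they were 0.0715% to 0.164%. Reads overlapping an annotated small RNA gene were 6.79% and 8.41% in the tagged IPs, 15.6% and 7.15% in the untagged IPs, 3.65% to 8.05% in the inputs and 42.6% to 52.5% in the 5'-phosphate libraries. The reads with neither feature were 54.6% with doxycycline, 55.9% without, 57.2% in the Dicer-null library and 47.4% in wildtype, and they include those of 1110038B12Rik. CACC(A) ends were thus the largest class in the inputs, and reads with neither feature in 3 of the 4 5'-phosphate libraries. The remaining reads amounted to 81.9 and 65.8 CPM in the tagged IPs, 361 and 348 CPM in the untagged IPs, 120 to 166 CPM in the inputs and 965 to 1621 CPM in the 5'-phosphate libraries. In this remainder, relative to the file total, the untagged IPs stood above the inputs of both lines, and the tagged IPs below them. The place of the tagged IPs depends on the scaling, since 58.3% and 50.7% of their reads matched microRNA hairpins. With totals outside hairpins, the median log2 difference of tested members from the tagged input moved from -0.86 to 0.56.

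**Figure D1:**
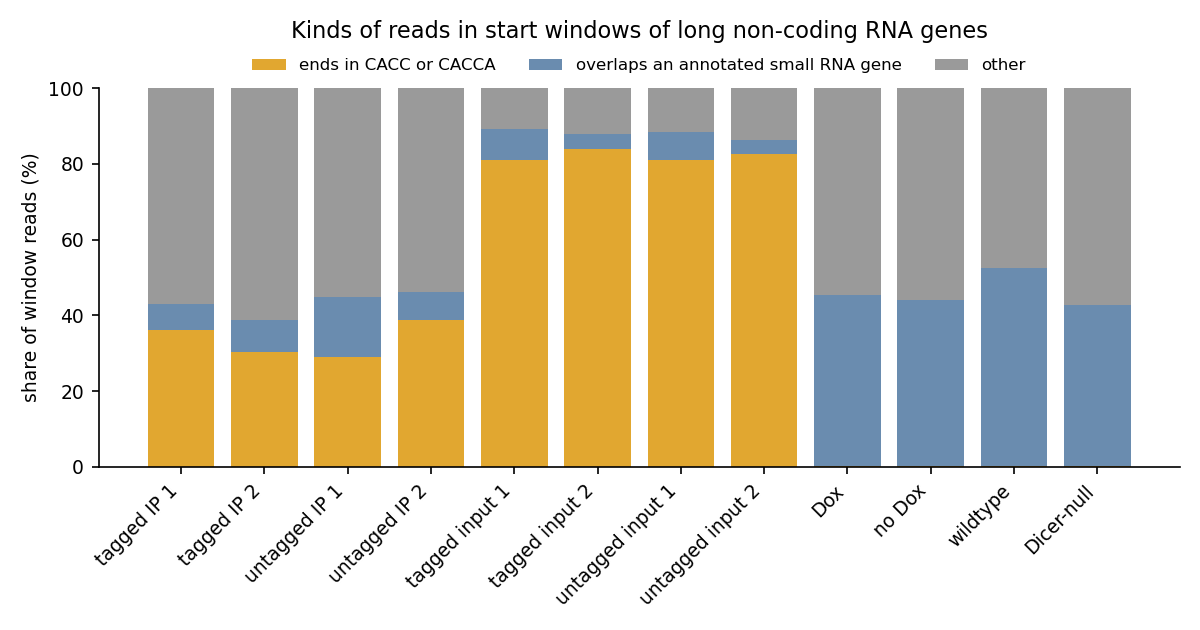
Share of start-window reads (%, stacked bars) in each of the 12 libraries that end in CACC or CACCA, overlap an annotated small RNA gene, or do neither. CACC(A) ends take 81.0% to 84.0% of window reads in the inputs and at most 0.164% in the 4 libraries cloned through a 5' phosphate.

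The members differed widely in level. AC161438.1, a processed_transcript gene, had 467 and 441 reads in the tagged IPs, 10258 and 9070 in the tagged inputs, 1726 and 1902 in the untagged IPs and 10794 and 7021 in the untagged inputs, against 9 to 105 reads in each 5'-phosphate library. Of its reads 99.8% had a CACC(A) end. Gm12505 (99.2% CACC(A) ends) had 216 and 320 reads in the tagged IPs, 4701 and 3573 in the tagged inputs, 1012 and 1728 in the untagged IPs and 4779 and 3135 in the untagged inputs. Both were highest in the inputs and lowest in the tagged IPs, with no overlap between inputs and IPs. 1110038B12Rik, a host gene, had 39377 reads with doxycycline, 37653 without, 25922 in wildtype and 98067 in the Dicer-null library, while its 8 replicated libraries held 63 to 1082. Rmrp had 27292, 24946, 23948 and 56580 reads in the same 4 libraries and 25 to 1125 in the replicated ones. These 2 windows were the main source of reads in the 5'-phosphate libraries, where the most abundant window alone gave 39.5% to 48.9% of window reads.

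The gene types differed in how often a window had any read. At least 1 read was found in 19.8% of lincRNA, 27.5% of antisense, 67.9% of bidirectional_promoter_lncRNA, 44.3% of processed_transcript and 35.2% of sense_intronic windows. Processed_transcript genes, the type of Gas5, Snhg1, Snhg3 and Snhg15, gave 51.8% and 49.8% of window reads in the tagged IPs and 51.4% and 51.2% in the untagged IPs. Sense_intronic genes gave 7.00% and 2.94% in the tagged IPs, 11.2% and 6.71% in the untagged IPs and at most 0.432% in the inputs, mostly through Gm48617.

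The tagged IPs were richer in RNAs of 20 to 24 nt. These made up 33.9% and 37.1% of window reads in the tagged IPs (35.5% ± 2.22) against 14.8% and 19.7% in the untagged IPs (17.2% ± 3.50), 14.3% ± 0.692 in the tagged inputs and 14.1% ± 1.24 in the untagged inputs. The 2 IP groups did not overlap (exact permutation p = 0.3333, the smallest possible; adjusted 0.4166). Without CACC(A) ends and small RNA genes, the shares were 50.2% ± 1.70 and 20.7% ± 4.06, and without Snhg15 they were 29.7% and 17%. Protein-coding windows showed 38.6% ± 5.03 and 20.2% ± 4.16. The inputs were led by 18 and 19 nt reads (70.4% to 75.3%), and the 5'-phosphate libraries by 25 to 34 nt reads (64.6% to 80.3%). The longest read was 40 nt in the 5'-phosphate libraries and 50 or 51 nt in the replicated ones, so lengths are not like for like between them. In the 5'-phosphate libraries 6.01% to 16.1% of window reads had that longest length.

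**Figure D2:**
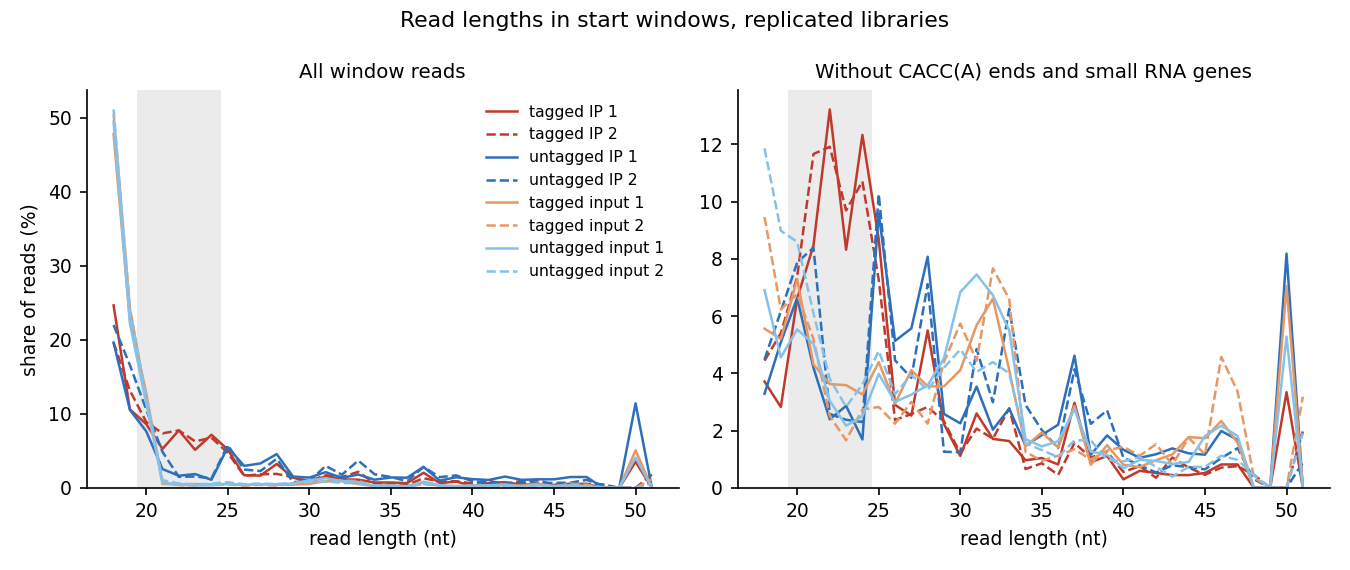
Share of start-window reads (%) at each length (nt) in the 8 replicated libraries, for all window reads (left) and without CACC(A) ends and annotated small RNA genes (right), with the band of 20 to 24 nt shaded. In the right panel the 2 tagged IPs have 49% and 51.4% of reads in the band, and the other 6 libraries 17.8% to 25%.

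The first base followed the same order between the IPs. T opened 49.9% of window reads in both tagged IPs (SD 0.017) and 28.5% and 38.4% in the untagged IPs (33.4% ± 7.03; exact permutation p = 0.3333, adjusted 0.4166). In the inputs it opened 68.0% ± 5.96 (tagged) and 67.4% ± 3.66 (untagged), where CACC(A) reads dominate (the printed Gm12505 and Gm29371 RNAs begin with T). Without those and the small RNA genes the IPs had 39.2% ± 4.41 (tagged) and 14.9% ± 6.30 (untagged), and the inputs 27.9% ± 15.0 (tagged) and 23.1% ± 0.0898 (untagged). The Snhg15 window alone held 264 of the 1346 and 379 of the 1980 reads then left in the tagged IPs. Of its tagged IP reads 94.7% began with T, so part of this difference rested on 1 window. For all reads of protein-coding windows the IPs had 26.7% ± 5.11 (tagged) and 15.9% ± 6.97 (untagged). T starts were 5.31% to 7.74% in the 5'-phosphate libraries.

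Reads whose 5' end fell in the first 5 nt of a transcript came from few genes. They were 25.3% and 29.3% of window reads in the tagged IPs (27.3% ± 2.82), 15.0% and 24.3% in the untagged IPs (19.6% ± 6.57), 17.3% to 21.6% in the inputs and 28.7% to 37.2% in the 5'-phosphate libraries (tagged against untagged IP, exact permutation p = 0.3333, adjusted 0.4166). Without Snhg15 the tagged and untagged IPs had 19% and 19.4%, so the direction of that difference rested on 1 window. The 5 windows with the most such reads were Rmrp (136065, of which 132766 in the 5'-phosphate libraries), Gm29371 (13745), Snhg3 (1549), Snhg1 (1126) and Snhg15 (905). Rmrp and Gm29371 RNAs began at base 5, Snhg3 and Snhg1 at base 1 and Snhg15 at base 3. Gm10076 had 548 such reads in the replicated libraries and 0 in the 5'-phosphate libraries, and its main RNA, printed above, starts at base 1.

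The start-site RNAs of Snhg1 and Snhg3 were highest in the untagged IPs. The printed Snhg1 RNA had 252 and 314 reads there, 40 and 53 in the tagged IPs, 68 and 36 in the tagged inputs, 49 and 26 in the untagged inputs and 0 in the 5'-phosphate libraries. The Snhg3 RNA had 200 and 208, 29 and 25, 44 and 4, and 50 and 19 in the same order, with at most 1 read in any 5'-phosphate library. A start with C followed by 4 bases that are each C or T was present in 3.29% of all member windows. Among reads with a 5' end in the first 5 nt it was present in 15.2% and 8.82% in the untagged IPs, 6.20% and 5.80% in the tagged IPs, 0.988% to 2.15% in the inputs and at most 0.395% in the 5'-phosphate libraries. The printed Snhg3 RNA alone gave 200 of 263 and 208 of 252 such reads in the untagged IPs. In the tagged IPs it gave 29 of 37 and 25 of 55. The IP shares thus rested largely on 1 RNA, and the printed Snhg1 RNA lacks this start. TGATGA, searched on the sense strand, occurred in 8.89% of member windows. It was in 37.2% to 46.9% of window reads of the 5'-phosphate libraries, mostly of 1110038B12Rik, and in at most 0.225% of those of the replicated libraries.

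The density of reads in the window over the density from its end to base 1000 was 3.43 ± 0.679 in the tagged IPs and 3.37 ± 0.0119 in the untagged IPs (exact permutation p = 1.0). For protein-coding genes the ratios were 2.61 ± 0.0802 and 1.38 ± 0.0774. The sign of the long non-coding difference turned when single windows or single replicates were left out, and no difference between the IPs is read from it. In the 5'-phosphate libraries the ratio was 1.13 to 2.18.

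Of the 10117 windows, 41 passed the filter on low counts among 969 windows of both gene kinds, and edgeR's quasi-likelihood test was run on all 969. Levels are relative to the file total. In the tagged against the untagged IP, 2 of the 41 were higher (Snhg15 and AC102055.1) and 34 lower at an adjusted p under 0.05. The filter itself bears on these counts: AC102055.1 passed it only through the tagged IPs, and 9 members, Rab26os and Meg3 among them, only through the untagged IPs. Gm15564 passed it only through a tagged input together with an untagged IP, and 1700015I17Rik only through inputs. Over all windows 2.99% were called higher and 85.8% lower, and the median log2 difference was -2.73 for the members and -2.64 for all. The direction of the lower calls depends on the scaling: with TMM factors, which move the median of all windows to -0.07, the members split into 4 higher and 0 lower, and with DESeq2 into 3 and 0. Without tagged IP replicate 2, edgeR called no member of 61 tested (35 had an unadjusted p under 0.05).

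Rab26os, an antisense gene, had 6 and 7 reads in the tagged IPs, 94 and 60 in the untagged IPs, 8 and 5 in the tagged inputs and 5 and 2 in the untagged inputs. Meg3, an imprinted microRNA and snoRNA host, had 4 and 7, 92 and 58, 5 and 1, and 6 and 1. Snhg3 had 103 and 182, 862 and 1808, 219 and 63, and 192 and 140. In all 3 the untagged IPs lay above the 6 other replicated libraries. The tagged IP differed from the untagged IP by -3.86 (SE 0.76) for Rab26os, -4.10 (SE 0.83) for Meg3 and -3.59 (SE 0.71) for Snhg3 on the log2 scale (each edgeR adjusted p 0.000832). With TMM factors these values were -1.28, -1.49 and -1.15 and none passed the threshold. Rab26os and Meg3 passed the filter on low counts only through the untagged IPs, the group where they are high. The calls of Rab26os and Meg3 are therefore a description and support nothing.

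Snhg15, host of a snoRNA and a processed_transcript gene on the minus strand (gene at chr11:6525591-6528760), went the other way. Its window had 264 and 379 reads in the tagged IPs (16.1 and 12.6 CPM), 8 and 3 in the tagged inputs (0.535 and 0.161 CPM), 68 and 90 in the untagged IPs (3.84 and 4.94 CPM) and 8 and 12 in the untagged inputs (0.480 and 0.829 CPM). Both tagged IPs lay above all 6 other replicated libraries, and both untagged IPs above all inputs. The tagged IP exceeded the tagged input by 5.37 (SE 0.76) on the log2 scale (edgeR adjusted p = 2.18e-05) and the untagged IP by 1.70 (SE 0.61, adjusted p = 0.0124), where the median of all windows was -2.64. The untagged IP exceeded its input by 2.74 (SE 0.68, adjusted p = 0.00457). That call was lost with TMM factors (0.98, adjusted p = 0.456), with DESeq2 (1.42, adjusted p = 0.405), with each distinct sequence counted once (0.238) and without untagged input replicate 1 (0.110) or untagged input replicate 2 (0.101). The gain over input was larger in the tagged line by 2.63 (SE 0.98), which did not pass (adjusted p = 0.051). It passed with TMM factors (4.93, adjusted p = 0.00854) and with DESeq2 (4.50, adjusted p = 0.00169). It also passed with a window of 100 nt (3.12, 0.0369) and with the replicate number as a block (2.64, 0.00671). It did not pass with no filter (0.374), totals outside microRNA hairpins (0.193), distinct sequences (0.679) or reads of 22 nt or more (0.0967). Nor did it pass with reads that have no antisense match to another gene (0.0506) or without CACC(A) ends and small RNA genes (0.0559). Leaving out 1 library at a time gave 1.98 to 3.67.

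The difference from the tagged input passed in all 18 alternatives run. The difference from the untagged IP lost its call without tagged IP replicate 1 (adjusted p = 0.0903), without tagged IP replicate 2 (0.0892), without untagged IP replicate 1 (0.0691), with no filter (0.0805) and with each distinct sequence counted once (0.267), and kept its direction in each. With TMM factors it was 4.18 (adjusted p = 7.93e-05).

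**Figure D3:**
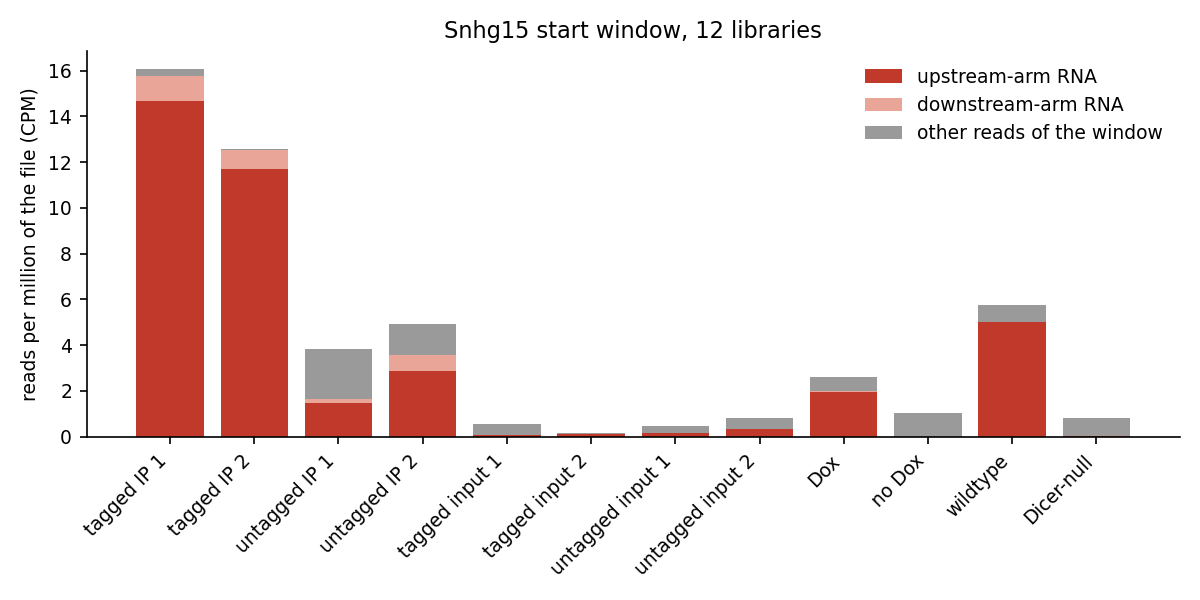
Level of the Snhg15 start window (CPM, stacked bars) in each of the 12 libraries, split into the upstream-arm RNA, the downstream-arm RNA and other reads. The tagged IPs reach 16.1 and 12.6 CPM, nearly all of it the upstream-arm RNA, of which the library without doxycycline has 0 reads.

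Most Snhg15 reads were 1 RNA. The printed 24 nt RNA and its length variants with a 5' end near base 3 of the window had 241 and 352 reads in the tagged IPs, 1 and 2 in the tagged inputs, 26 and 52 in the untagged IPs and 3 and 5 in the untagged inputs. In the 5'-phosphate libraries it had 54 reads with doxycycline, 0 without, 162 in wildtype and 4 in the Dicer-null library. Within that cloning method it was seen mainly in wildtype and with doxycycline, and the 0 reads without doxycycline allow up to 0.113 CPM. Of its 902 reads 81.2% were 20 to 24 nt long. A second RNA, 43 nt downstream, had 18 and 25 reads in the tagged IPs, 3 and 13 in the untagged IPs, 1 with doxycycline and 0 in the other 7 libraries. Both RNAs were picked after their values were seen, and their counts are given without a test.

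The stretch that holds both RNAs (67 nt, chr11:6528375-6528441, minus strand) is printed with the 2 RNAs in capitals, since it shows how they face each other. RNAfold gave it a minimum free energy of -21.7 kcal/mol with 20 base pairs, 15 of them between the 2 RNAs. No microRNA gene of RefSeq (GRCm38.p6) or GENCODE M21 lies there, and other microRNA catalogues were not used here. In other Snhg15 transcripts the stretch is the end of an intron of 173 nt (chr11:6528375-6528547). Of the 60 downstream-arm reads 44 end at the last base of that intron, while the upstream RNA begins 108 nt from its first base.
Snhg15 stretch: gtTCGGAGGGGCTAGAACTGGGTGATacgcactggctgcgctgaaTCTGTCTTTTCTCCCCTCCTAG
Downstream-arm RNA, bases 2 to 8 in capitals: tCTGTCTTttctcccctcctag

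The level of the upstream RNA was 98.9-fold higher in wildtype than in the Dicer-null library (95% exact interval 37.9 to 367). It was at least 17.2-fold higher with doxycycline than without, and at least 44.4-fold higher in wildtype than without doxycycline, with the 0 set to 3 reads. Wildtype was 2.59-fold above the doxycycline library (1.89 to 3.59). These intervals cover counting error only, reads copied by PCR are not separate molecules, and each comparison rests on 1 library a side. Differences between the lines other than Dicer or doxycycline cannot be told apart from them.

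AC102055.1, an antisense gene named after its values were seen, was the other member called higher. It passed the filter on low counts only through the tagged IPs, the group where it is high, so its calls are a description and support nothing. It had 13 and 19 reads in the tagged IPs, 1 and 0 in the tagged inputs, 0 and 3 in the untagged IPs and 1 and 1 in the untagged inputs. Its most abundant RNA was 22 nt long, and all of its tagged IP reads were 20 to 24 nt. The log2 differences were 2.98 against the untagged IP (SE 0.94, edgeR adjusted p = 0.00582) and 4.27 against the tagged input (SE 1.14, adjusted p = 0.0125). Against the untagged IP the call was lost without tagged IP replicate 1 (adjusted p = 0.189), without tagged IP replicate 2 (0.208), without untagged IP replicate 1 (0.114) and with no filter (0.0702). Against the tagged input it was lost with no filter (0.164), without either tagged IP (0.524 and 0.661), without either tagged input (0.152 and 0.473) and without either untagged input (0.0700 and 0.0870).

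Of 33 members with at least 5 reads in each tagged IP, 6 had their highest level in both, among them Snhg15, AC102055.1, Gm38102, AC154232.1 and Gm26559. In 5 of the 6 the most abundant RNA was 20 to 24 nt long, and in 4 it began with T. AC154232.1 is the exception in length: its main RNA has 25 nt, and 10.53% of its tagged IP reads were 20 to 24 nt. The same rule in the untagged IPs found 33 of 58 members, 9 with a main RNA of 20 to 24 nt and 4 beginning with T. In the inputs it found 1 of 28 (tagged) and 1 of 32 (untagged). The minimum was set in the group where a member is high, so these counts describe the members and support nothing. Gm38102 had 14 and 17 reads in the tagged IPs and 0 to 6 in the other replicated libraries, AC154232.1 6 and 13 against 0 to 3, and Gm26559 6 and 11 against 0 to 3. These 3 were too low for the fit.

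In the tagged IP against its own input, 2 of the 41 members were higher (again Snhg15 and AC102055.1) and 11 lower. Over all windows 4.13% were called higher and 5.47% lower. The median log2 difference was -0.86 for members and -0.43 for all. With TMM factors the split was 2 and 9, and with DESeq2 1 and 8. The lower members included the CACC(A) windows Gm12505, Gm29371, Gm47549, Gm47916 and AC161438.1. Also lower were Rmrp, Gas5 and Snhg17, where 90.9% to 100% of reads overlap a small RNA gene. The others were 1110038B12Rik, 6530403H02Rik and 1700015I17Rik, where almost none do. These shares are over all 12 libraries and do not describe the tagged IPs and inputs alone. 6530403H02Rik and 1700015I17Rik were named after their values were seen. The filter on low counts was passed by 1700015I17Rik only through inputs, where it is high, so its call is a description and supports nothing. Gm12505 differed by -4.41 (SE 0.70, edgeR adjusted p = 4.88e-05), Rmrp by -4.47 (SE 0.80, adjusted p = 0.000208) and 1110038B12Rik by -3.98 (SE 0.66, adjusted p = 7.61e-05). Without CACC(A) ends and small RNA genes 4 members were lower (1110038B12Rik, 1700015I17Rik, 6530403H02Rik and Gm12505), and leaving out tagged IP replicate 1 or tagged IP replicate 2 gave 7 in each case.

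In the untagged IP against its own input, 19 of the 41 members were higher and 7 lower, where 58.7% of all windows were called higher and 2.99% lower. The medians were 1.19 and 1.94. The 9 members that passed the filter only through the untagged IPs are among the 41, so their calls here are a description only. The same holds for Gm15564, which passed only through a tagged input together with an untagged IP. With TMM factors the split was 2 higher and 11 lower, with DESeq2 2 and 8, so the direction of the higher calls depends on the scaling. Without untagged input replicate 2 edgeR called none (22 had an unadjusted p under 0.05), and without untagged input replicate 1 or untagged IP replicate 1 it called 8 and 12. Gm48617, a sense_intronic gene, had 1279 and 784 reads in the untagged IPs, 91 and 57 in their inputs, 155 and 76 in the tagged IPs and 88 and 30 in the tagged inputs. Gm10076 had 77 and 362 in the untagged IPs, 21 and 2 in their inputs, 19 and 48 in the tagged IPs and 10 and 9 in the tagged inputs. Both were higher in the untagged IPs, by 3.61 (SE 0.74) and 4.08 (SE 0.81) over input on the log2 scale, each with an edgeR adjusted p of 0.00225. The median of all windows was 1.94 here. With DESeq2 both were called higher, and with TMM factors neither was. Gm48617 turned direction with each distinct sequence counted once. The 7 lower members were Rmrp, 1700015I17Rik and the 5 CACC(A) windows. Of these, 1700015I17Rik passed the filter only through inputs, where it is high, so its call is a description and supports nothing.

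The gain over input was compared between the lines in the same fit. It was smaller in the tagged line for 12 of the 41 members and larger for 0 (28 had an unadjusted p under 0.05 in either direction), where 19.2% of all windows were called smaller and 0.619% larger. The medians were -2.43 and -2.32. With TMM factors the members split into 2 larger (Snhg15 among them) and 0 smaller, and with DESeq2 into 1 (Snhg15) and 0. Without tagged IP replicate 1, tagged IP replicate 2, tagged input replicate 1 or untagged input replicate 2, edgeR called no member. Without untagged input replicate 1 there were 3 calls, and without untagged IP replicate 2 there were 22.

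**Figure D4:**
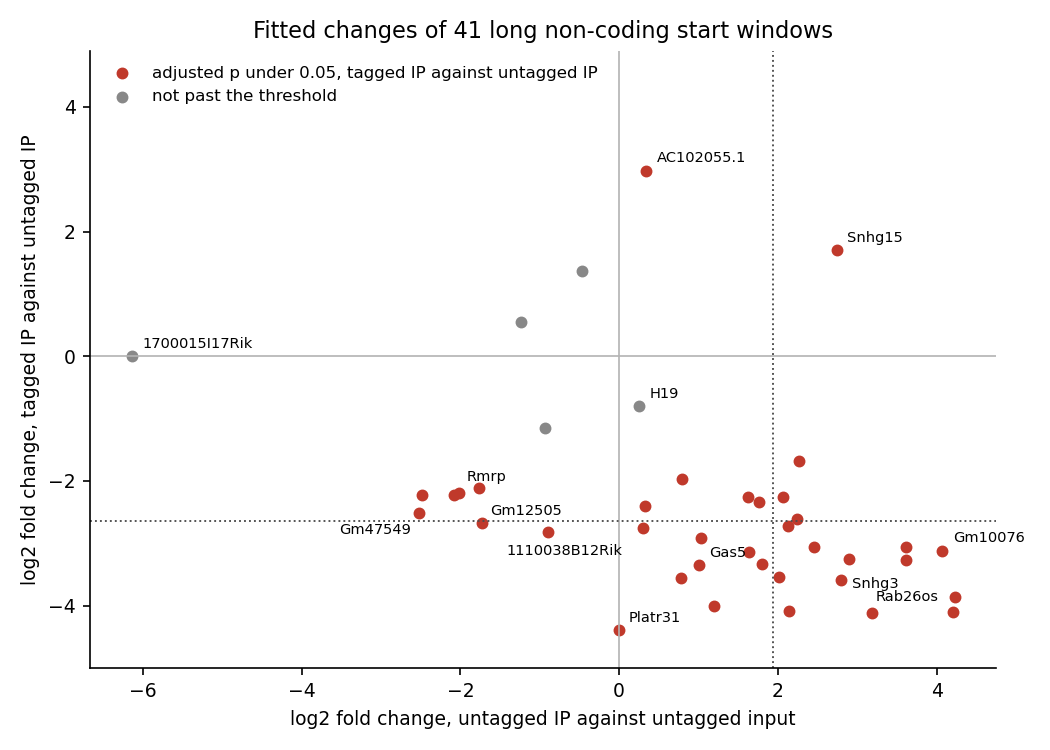
Fitted log2 change of the 41 tested windows in the tagged against the untagged IP (vertical) and in the untagged IP against its input (horizontal), with the median of all 969 windows as dotted lines and calls of the tagged against untagged IP in red. Snhg15 (1.70) and AC102055.1 (2.98) lie above 0, most other members near the median of -2.64, and 1700015I17Rik, with 0 reads in all 4 IPs, is drawn at 0.

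Of 21 symbols listed as snoRNA hosts 17 were members, all 17 had reads and 11 were tested. In the tagged against the untagged IP, Snhg15 was higher and 10 were lower (median -3.06, all windows -2.64; the lower calls are scaling-dependent as above). Against the tagged input 1 was higher and 2 lower (median -0.95), beside 4.13% and 5.47% of all windows. In the untagged IP against input 6 were higher and 0 lower (median 1.77), beside 58.7% and 2.99% of all windows. Gas5, a regulator of growth arrest and the most abundant of them over all 12 libraries together, had 67 and 71 reads in the tagged IPs, 368 and 108 in the tagged inputs, 970 and 199 in the untagged IPs and 247 and 259 in the untagged inputs. Its 2 untagged IPs lay far apart. In the tagged IPs, Snhg3 and Snhg15 had more reads. The list took 25.5% and 29.7% of window reads in the tagged IPs, 27.9% and 29.8% in the untagged IPs and 2.72% to 4.39% in the inputs. Snhg5 and Snhg20 passed the low-count filter only through the untagged IPs, so their calls in comparisons with those IPs support nothing.

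Of 17 microRNA host symbols 15 were members, 13 had reads (Mir124-2hg and Mirt1 did not) and 4 were tested. In the tagged against the untagged IP 3 were lower and 0 higher (median -2.84). For this list and the next 2, 85.8% of all windows were lower too, and with TMM factors or DESeq2 no member was called lower. Meg3, Mirg and H19 of this list, Firre of the next and Lncenc1 of the last passed the low-count filter only through the untagged IPs. Calls of these members, and list medians that include them, are a description and support nothing. H19, an imprinted host of miR-675, had 6 and 11 reads in the tagged IPs and 12 and 11 in the untagged IPs, a difference of -0.80 (SE 0.72, edgeR adjusted p = 0.29). Of 16 nuclear and X-linked regulators 15 were members, 13 had reads (Miat and Peg13 did not) and 2 were tested. Malat1, which sits in nuclear speckles, had 14 and 31 reads in the tagged IPs and 106 and 57 in the untagged IPs. Firre, an X-linked chromatin organiser, had 5 and 5, and 55 and 24. Both were lower (median -2.76). Of 39 stem cell symbols 35 were members, 32 had reads and 3 were tested. Platr31, Lncenc1 and Snhg3 were all lower in the tagged IP (median -3.59). Platr31 had 87 reads, all in the replicated libraries and all starting in the first 5 nt.

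Dnm3os, a gene antisense to Dnm3 and known host of a miR-199a hairpin, had 106 reads in wildtype, 12 with doxycycline and 0 without doxycycline and in the Dicer-null library. It had 4 and 15 in the tagged IPs, 2 and 3 in the untagged IPs and 0 or 1 in each input. Of its 143 window reads 73 were the RNA below, which follows mmu-miR-199a-3p of RefSeq (GRCm38.p6) except for A22T, counted from the 5' end of the microRNA. The difference is its last base, in capitals. Because of it the reads matched the spliced Dnm3os transcript (chr1:162217883-162218024) and not the hairpin, so this window is uncertain as a long non-coding one.
Dnm3os: acagtagtctgcacattggttT
mmu-miR-199a-3p: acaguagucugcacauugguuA

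For the Dicer-null against the wildtype library, 136 members had at least 20 reads in the 2 together. At 2-fold or more, 33 were higher and 7 lower, where 31.3% of all windows were higher and 2.24% lower. The median log2 ratio was 0.24 for members and 0.62 for all. The most abundant members differed little: Gas5 1.01-fold (95% exact interval 0.978 to 1.05), Rmrp 0.968-fold (0.953 to 0.982) and 1110038B12Rik 1.55-fold (1.53 to 1.57).

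The members lower without Dicer included 4 with a main RNA near microRNA length. Gm13267, an antisense gene, had 105 reads in wildtype, 1 in the Dicer-null library, 0 without doxycycline and 2 with it, a 256-fold ratio (45 to 10222). Dnm3os was at least 86.3-fold lower, with its 0 set to 3 reads. Gm5860, a lincRNA gene, had 95 reads in wildtype, 18 in the Dicer-null library, 15 without doxycycline and 15 with it, and was 12.9-fold lower (7.73 to 22.7). Snhg15 had 186 and 65 reads and was 6.99-fold lower (5.24 to 9.42). In the Snhg15 window the reads left in the Dicer-null library were mostly not the upstream-arm RNA. The main RNA of Gm13267 (chr2:5895822-5895844, plus) is given with bases 2 to 8 in capitals and had 5 reads in each tagged IP. That of Gm5860 (chr4:82102497-82102516, plus) contains TGATGA, given in capitals, and had 0 reads in all 8 replicated libraries.
Gm13267: aGGCCGGGcggtggtggcgcacg
Gm5860: agtaaaTGATGAgattccaa

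**Figure D5:**
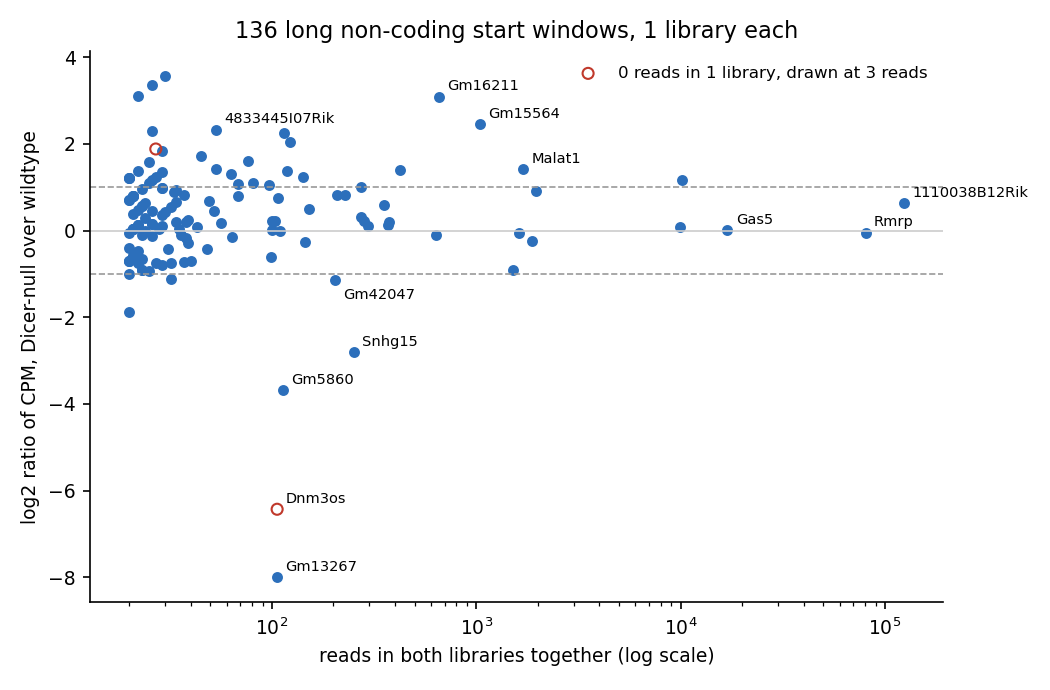
Log2 ratio of CPM in the Dicer-null over the wildtype library (vertical) against the reads of both libraries together (horizontal, log scale) for 136 start windows, with dashed lines at 2-fold. Gm13267, Dnm3os, Gm5860 and Snhg15 lie lowest among windows with over 100 reads, while Rmrp, Gas5 and 1110038B12Rik lie within 2-fold.

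Among members with at least 50 reads in both libraries together, those higher in the Dicer-null library were led by Gm16211, a lincRNA gene with 30 reads in wildtype and 625 in the Dicer-null library (8.53-fold, 5.92 to 12.8), and Gm15564, an antisense gene with 72 and 969 (5.51-fold, 4.34 to 7.10). Ratios above that of Gm16211 rested on fewer reads: Epb41l4aos had 1 and 29, Gm9725 1 and 25 and Gm17690 1 and 21. C78283, with 0 and 27, has only a lower bound (at least 3.69-fold). These 4 were named after their values were seen. Malat1 had 227 and 1475 (2.66-fold, 2.31 to 3.07). Rian had 1559 and 8599 (2.26-fold, 2.14 to 2.39), and Meg3 had 7 and 46 (2.69-fold, 1.21 to 7.07). Gm16211 and Malat1 were also higher without doxycycline than in wildtype, with 189 and 455 reads (7.66-fold and 2.44-fold). With each distinct sequence counted once, Gm15564 turned to 0.614. The main Gm16211 RNA (chr4:147670786-147670809, minus) was 24 nt long.
Gm16211: gggatatgatggccttttctgacc

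The listed groups followed their members in the single libraries. Of 14 snoRNA hosts with enough reads 3 were higher in the Dicer-null library and 1, Snhg15, was lower. Of 5 microRNA hosts 4 were higher and 0 lower, among them Rian, Meg3 and Mirg (57 reads in wildtype and 364 in the Dicer-null library, 2.62-fold, 1.97 to 3.52). Of 4 nuclear and X-linked regulators 2 were higher and 0 lower, Malat1 and Neat1 (21 and 121 reads, 2.36-fold, 1.48 to 3.95). Of 5 stem cell members none passed 2-fold either way. The share of all windows past 2-fold higher, 31.3%, is the measure beside which these counts stand.

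With and without doxycycline, that is with and without Ago2 in 1 line, 51 members could be compared. Only Snhg15 was 2-fold or more higher with doxycycline (72 against 27 reads, 2.54-fold, 1.61 to 4.12) and 4 were lower, where 3.50% of all windows were higher and 9.67% lower. The median log2 ratio was -0.13 for members and -0.16 for all. Lower were, among named members, Gm26870 (177 against 359 reads), Dleu2 (20 against 39) and Snhg8 (16 against 37). 1110038B12Rik (0.997-fold, 0.983 to 1.01) and Gas5 (1.01-fold, 0.961 to 1.06) differed little.

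Without doxycycline against wildtype, 58 members could be compared, and 14 were higher and 11 lower at 2-fold, where 15.3% of all windows were higher and 6.72% lower. These are different lines as well as different Ago states, and the 2 cannot be told apart. Gm36816, an antisense gene, had 204 reads without doxycycline, 144 with it, 3 in wildtype and 5 in the Dicer-null library. Gm26870, a lincRNA gene, had 359, 177, 13 and 68. Both were high in TT-FHAgo2 whether or not doxycycline was given. Gm42047 had 2 reads without doxycycline, 0 with it, 97 in wildtype and 107 in the Dicer-null library, the reverse pattern. Snhg15 was 5.67-fold lower without doxycycline than in wildtype (3.77 to 8.83), and Gm13267 at least 28.8-fold lower.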

How the data were processed

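Each deposited file lists distinct small RNA sequences with a read count, per the file headers and values. Aligner, adapter trimming and any filter are not given in the sources used here. Counts were used as deposited by the authors. Sequences of at least 18 nt were matched exactly to GENCODE M21 transcripts, and start-window reads as defined in the report were summed and divided by the file total (CPM). Reads matching 2 or more genes were set aside. No genome was used, so a match outside annotated transcripts is not known. Small RNA genes came from RefSeq (GRCm38.p6) and GENCODE.

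Groups came from the sample labels. Windows passing edgeR's filterByExpr were fitted with edgeR 4.0.16 (R 4.3.3; glmQLFit and glmQLFTest) over the 8 replicated libraries, with file totals as library sizes and Benjamini-Hochberg adjustment over all 969 windows, threshold 0.05. Shares were compared by exact permutation tests over libraries (scipy 1.17.1, Python 3.11.15). Single libraries were compared as ratios with 95% Clopper-Pearson intervals, at a minimum of 20 reads. Folding used ViennaRNA 2.7.2. The fit was tested on simulated counts. The 2 libraries of each group differed by more than counting noise (chi-square over its degrees of freedom, 3.05 to 24.8) and were counted as separate. With 3 reads as the limit that a count of 0 allows, the 12 libraries reach 0.0381 to 0.207 CPM.

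The windows, gene lists and tests were chosen with earlier results of these data known. Named genes were the 12 highest members in the replicated and in the single libraries, the 6 largest called changes each way per fit at a mean of 0.5 CPM or more, the 5 highest and lowest ratios per single comparison at 50 reads or more, the 3 most abundant of each list and the 5 with most reads in the first 5 nt. Alternatives were TMM factors, DESeq2 1.42.0, no filter, other windows and read sets, a replicate block and leaving out each library. Leaving out CACC(A) and small RNA gene reads, or Snhg15, was chosen after seeing the data. The values and sequence of 1 member are not reported here.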

Additional observations from a re-analysis of the deposited data

Results flagged for a closer look

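For 12 members the gain over input differed between the lines in the fit itself (edgeR adjusted p 0.0335 to 0.0439), and each gain was smaller in the tagged line. The log2 differences were -5.17 for Gm15564, -4.67 for Rab26os, -3.86 for Meg3, -3.72 for 2900060B14Rik, -3.60 for Snhg17, -3.35 for Snhg3, -3.32 for Snhg1, -3.25 for Gas5, -3.09 for 1110038B12Rik, -2.94 for Gm48617, -2.72 for Dancr and -2.69 for Gm12505. The median over all windows was -2.32, so 12 calls sit on a shift that most windows share. Rab26os and Meg3 passed the filter on low counts only through the untagged IPs, so their calls here support nothing. Gm15564 passed it only through a tagged input together with an untagged IP, so its calls here are a description too. In the untagged line, Gm15564, Rab26os, Meg3, Snhg3, Snhg1, Gm48617, 2900060B14Rik and Dancr exceeded input (1.77 to 4.23), and in the tagged line none of those 8 passed. Snhg17, Gas5, 1110038B12Rik and Gm12505 were below input in the tagged line (-4.41 to -2.24). With TMM factors, or with reads outside microRNA hairpins as the total, none of the 12 passed. No group had enough libraries to look for a single library far from the others.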

How the results depend on the processing

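The numbers of members called were sensitive to scaling, copies and single libraries. Against the main 36 calls (tagged against untagged IP), 13 (tagged IP against input), 26 (untagged IP against input) and 12 (difference of gains), TMM factors gave 4, 11, 13 and 2, DESeq2 3, 9, 10 and 1, and no filter 37, 9, 13 and 0. Totals outside microRNA hairpins gave 18, 15, 25 and 0. Each distinct sequence counted once gave 0, 1, 0 and 0, with 27 members tested; 4, 3, 8 and 2 members had an unadjusted p under 0.05. Reads of 22 nt or more gave 28, 5, 19 and 7, with 29 members tested. Dropping CACC(A) ends and small RNA genes, chosen after seeing the data, left 6 calls against the tagged input. Leaving out 1 library gave 0 to 44, 8 to 19, 0 to 33 and 0 to 22; a lone library is then assumed to vary like the other groups. With the replicate number as a block the counts were 37, 17, 28 and 30. The titles give replicate 1 of all 4 groups one code and replicate 2 another, and the labels do not say what a code means. The codes do go with a difference in the files. The longest read was 50 nt in every replicate 1 library of these groups and 51 nt in every replicate 2 library. The main fit does not model this difference. Deviations of same-numbered libraries correlated at 0.045 to 0.37 (over 0.1 in 4 of 6 group pairs), which does not establish a pairing with 2 numbers. With the block, Snhg15 passed as gaining more in the tagged line (adjusted p 0.00671).

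The difference between the IPs in the share of reads starting in the first 5 nt turned from 7.70 to -0.46 percentage points without Snhg15. The difference in density ratio (0.0535) turned to -0.311 without windows where 1 end holds over 80% of reads, -0.0101 without the most abundant window, -1.18 without CACC(A) ends and small RNA genes, -0.317 without Snhg15 and -0.419 without replicate 1 (0.526 without the other). The differences in the share of the file, of 20 to 24 nt and of T starts kept their direction in every alternative run.

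Of windows past 2-fold, 40 (Dicer-null against wildtype) became 22 at 50 reads or more, 12 with distinct sequences and 24 with reads of 22 nt or more. For doxycycline, 5 became 1 with distinct sequences and 3 outside hairpins, and for no doxycycline against wildtype 25 became 16 at 50 reads and 6 with distinct sequences. With distinct sequences the direction turned for AC161438.1 against the tagged input (0.24, log2), Gm48617 in the untagged IP against input (-0.50), the Dicer-null to wildtype ratios of Gm12505 (0.497) and Gm15564 (0.614), the doxycycline ratios of Gm12505 (1.07) and Mirg (0.919) and the no-doxycycline to wildtype ratio of AC161438.1 (0.942). Snhg12 with doxycycline turned to 0.894 without small RNA genes. Apart from settings that use fewer reads or libraries, the cause was not tested. Most members had too few reads for any fit, and the 4 single libraries have no replicate.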

Other observations

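Several abundant windows were called lower in the tagged than in the untagged IP, like most windows, and their levels elsewhere are given as values. Dancr, a snoRNA host, had 45 and 117 reads in the tagged IPs, 137 and 70 in the tagged inputs, 236 and 372 in the untagged IPs and 88 and 67 in the untagged inputs. Its most abundant RNA in these libraries was 21 nt long and began at base 37 of the window (chr5:74093119-74093139, plus strand; 417 reads in the 8 libraries), and 42.1% of its window reads over all libraries were 20 to 24 nt. 2900060B14Rik, an antisense gene, had 22 and 56, 103 and 68, 410 and 266, and 123 and 28 reads in the same order. Over all libraries 97.2% of its reads overlapped an annotated small RNA gene. Gm36816 had 90 and 142, 210 and 163, 429 and 286, and 211 and 149.

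In the 5'-phosphate libraries AC121821.1, a processed_transcript gene, had 278 reads with doxycycline, 257 without, 658 in wildtype and 852 in the Dicer-null library. Over all libraries 98.3% of its reads overlapped a small RNA gene. Dleu2, a microRNA host known from chronic lymphocytic leukaemia deletions, had 20, 39, 48 and 97 reads there and at most 3 in any replicated library. Of its reads 79.9% began in the first 5 nt and 78.5% overlapped a small RNA gene. Neat1, the scaffold of nuclear paraspeckles, had 30, 38, 21 and 121 reads, and Lncenc1, a stem cell long non-coding RNA, 12, 14, 12 and 40.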
